A study of Rattus norvegicus with 12 samples.

Results

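Claudins are the membrane proteins that set what a tight junction lets pass between epithelial cells. RNA of 9 claudin genes with known places along the nephron, Cldn1, Cldn2, Cldn3, Cldn4, Cldn7, Cldn8, Cldn10, Cldn16 and Cldn19, was examined in the renal cortex of obese and lean rats. These genes were chosen by name from a table of 13151 genes, in which 20 claudin genes had a row, and all 9 passed the filter on low values that left 11633 genes for testing. The 12 male rats were 32 weeks old and formed 3 groups of 4, namely Zucker lean controls (ZL), Zucker fatty rats (ZF) and ZF rats given canagliflozin, an inhibitor of the sodium-glucose cotransporter SGLT2, at 10 mg/kg/day, begun at 24 weeks of age and kept up for 8 weeks (ZF-SGLT2i). Zucker fatty rats lack leptin signalling, with the defect placed in the leptin receptor by the study's methods and in leptin by the deposited design text. RNA was taken from whole cortex, with ribosomal RNA removed before strand-specific libraries were made, so the values average over every cell type of the tissue. By the study's methods, the rats followed for the time course had open kidney biopsies at earlier ages, and the rats of the treatment trial, with untreated ZF rats of their own, were bought as a separate set. The labels do not give the set of the untreated ZF rats, and a legend in the study names the sequenced ones as the untreated group of the trial. Lean rats are described in the biopsied set alone, so for rats of different sets prior surgery and group cannot be told apart. The libraries held 8824980 to 12210257 reads assigned to genes.

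Tight junctions seal neighbouring epithelial cells near their apical side. Some claudins form paracellular pores and others act mainly as barriers, so that each nephron segment gets its own leakiness and ion preference. Claudin-2 forms cation- and water-permeable pores in the leaky proximal tubule, claudin-10 has a form selective for anions in the proximal tubule and a form selective for sodium in the thick ascending limb, and claudin-16 together with claudin-19 is needed for paracellular calcium and magnesium reabsorption in the thick ascending limb. Claudin-3, claudin-4, claudin-7 and claudin-8 belong to the tighter distal segments, where claudin-4 and claudin-8 are linked to paracellular chloride transport. Claudin-1 is made by the parietal epithelium that lines Bowman's capsule.

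ZL rats 1 and 4 stood apart from the other lean rats in several genes. Cryab, a small heat shock protein gene abundant in the medulla, measured 83.3, 31.3, 27.9 and 136 CPM in ZL rats 1 to 4, where CPM is the read count scaled to a library of 1000000 reads, and 26.9 to 43.1 CPM in the fatty rats. Slc7a13, an amino acid transporter gene of the late proximal tubule, measured 838, 139.9, 244 and 1896 CPM in the same lean rats. The called differences of the 9 claudins from ZL, most of their segment ratios and some gene list counts are therefore also given without both rats. This omission was chosen after the data were seen and leaves 2 lean rats. Most claudin differences from ZL that were not called are given with all lean rats only.

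Of the 9 claudins, 4 were called in at least 1 comparison. Cldn10 was lower in ZF rats than in lean controls and was lowest after canagliflozin, and Cldn2 was lower in the treated rats than in lean controls. The collecting duct claudins Cldn4 and Cldn7 were above their lean levels in ZF rats with or without treatment. Cldn1, Cldn3, Cldn8, Cldn16 and Cldn19 passed the test in none of the 3 comparisons. The test was limma on log2(CPM + 1) with Benjamini-Hochberg adjustment over all 11633 genes and a threshold of 0.05. Between ZF and ZL, 3 of the 9 genes were called, 2 higher and 1 lower, beside 18.8% of all genes tested (8.19% higher and 10.6% lower). For treated against untreated ZF rats the count was 1 of 9, lower, beside 3.15% of all genes (1.39% higher and 1.75% lower). For treated against ZL rats it was 4 of 9, 2 higher and 2 lower, beside 27.4% (12.4% higher and 15.0% lower). Without ZL rats 1 and 4, 1, 1 and 4 of the 9 genes were called in these comparisons (Cldn4; Cldn10; Cldn2, Cldn4, Cldn10 and Cldn16), beside 9.01%, 4.35% and 15.3% of all genes. The groups did not overlap for 1, 1 and 4 of the 9 genes in these comparisons, beside 19.0%, 11.2% and 28.0% of all genes. The shares of all genes called, with and without those 2 lean rats, also apply to the counts of the gene lists below. The comparisons share rats, since each group enters 2 of them. The median log2 difference of the 9 genes was 0.07 for ZF against ZL, -0.09 for treated against untreated ZF rats and -0.02 for treated against ZL rats, and that of all genes tested was -0.01, 0.01 and 0.00.

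**Figure D1:**
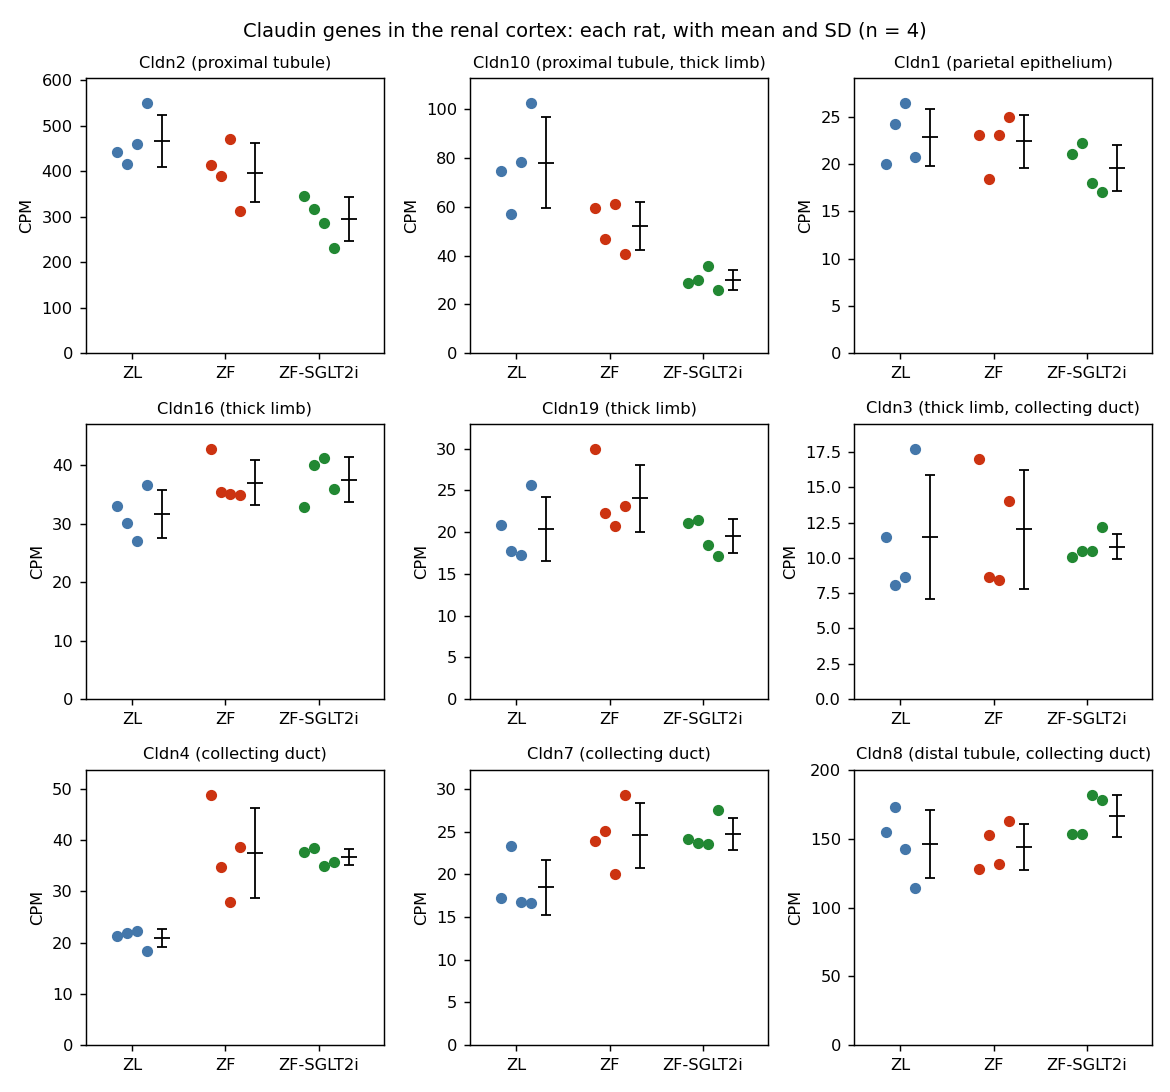
CPM of the 9 claudin genes (vertical axes, starting at 0) in each rat of the ZL, ZF and ZF-SGLT2i groups, with the mean and SD of 4 rats beside the points. Cldn10 falls from 78.1 to 52.1 to 30.1 CPM on average, and all ZL rats sit below all other rats for Cldn4.

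Of the proximal claudins, Cldn10 had the largest difference among the 9 genes for ZF-SGLT2i against ZL. In ZL rats 1, 2, 3 and 4 it measured 74.7, 57.2, 78.2 and 102 CPM, in ZF rats 2, 3, 4 and 5 it measured 59.5, 47.0, 61.1 and 40.9 CPM, and in ZF-SGLT2i rats 2, 3, 4 and 6 it measured 28.9, 30.0, 35.6 and 25.7 CPM. All 4 treated rats lay below all untreated rats, while ZL rat 2 fell within the range of the ZF rats. The log2 difference between ZF and ZL was -0.56 (SE 0.16, limma adjusted p = 0.0285), and that for ZF-SGLT2i against ZL was -1.33 (95% interval -1.68 to -0.98, adjusted p = 0.000107). In ZF-SGLT2i against ZF, Cldn10 was the single called claudin, with a log2 difference of -0.76 (SE 0.16, adjusted p = 0.0223), equal to 0.589 times the untreated level. An exact permutation test of the CPM values (two-sided, smallest possible p 0.0286 for 4 rats against 4) gave 0.0857 for ZF against ZL and 0.0286 for each of the other comparisons. The first of these calls was lost without ZL rat 1, 3 or 4 (adjusted p = 0.0593, 0.0593 and 0.0698), without ZF rat 3 or 5 (0.0803 and 0.0826) in a fit of those groups alone (0.0566) and without both ZL rats 1 and 4 (log2 difference -0.37, adjusted p = 0.197). With these rats left out the difference for ZF-SGLT2i against ZL was -1.14 and still called. The call for ZF-SGLT2i against ZF was lost without ZF rat 2 or 4 (0.0685 and 0.0724) or ZF-SGLT2i rat 2, 3 or 6 (0.0552, 0.0631 and 0.0733), and the difference stayed between -0.87 and -0.68 whichever rat was left out.

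Cldn2 was the most abundant of the 9 genes in reads, with at least 2075 in every library. Its values were 441, 415, 459.7 and 549 CPM in ZL rats 1 to 4, 413, 389.8, 470.1 and 313 CPM in ZF rats 2 to 5, and 345, 318, 285 and 231 CPM in ZF-SGLT2i rats 2, 3, 4 and 6. Treated rats all lay below the ZL rats, and ZF rat 5 alone among the untreated fell within the treated range. The log2 difference for ZF-SGLT2i against ZL was -0.67 (SE 0.14, limma adjusted p = 0.00307), or 0.63 times the ZL level, and it passed under all 22 alternatives tried and without both ZL rats 1 and 4 (-0.58, adjusted p = 0.0278). Between ZF and ZL the difference was -0.24 (95% interval -0.53 to 0.05, adjusted p = 0.24). In ZF-SGLT2i against ZF it was -0.43 (interval -0.72 to -0.13 before adjustment, adjusted p = 0.114), which passed without ZF rat 5 (-0.53, adjusted p = 0.0334) and with DESeq2 on the recovered reads (-0.43, adjusted p = 0.0451). On simulated data DESeq2 called more unchanged genes (22) than limma (8). The ratio of Cldn10 to Cldn2 in ZL, ZF and ZF-SGLT2i rats was 0.166 ± 0.0203, 0.131 ± 0.00975 and 0.104 ± 0.0182 (SD, n = 4). Its groups overlapped except for ZF-SGLT2i against ZL (exact permutation p = 0.0286), and its mean over ZL rats 2 and 3 was 0.154.

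**Figure D2:**
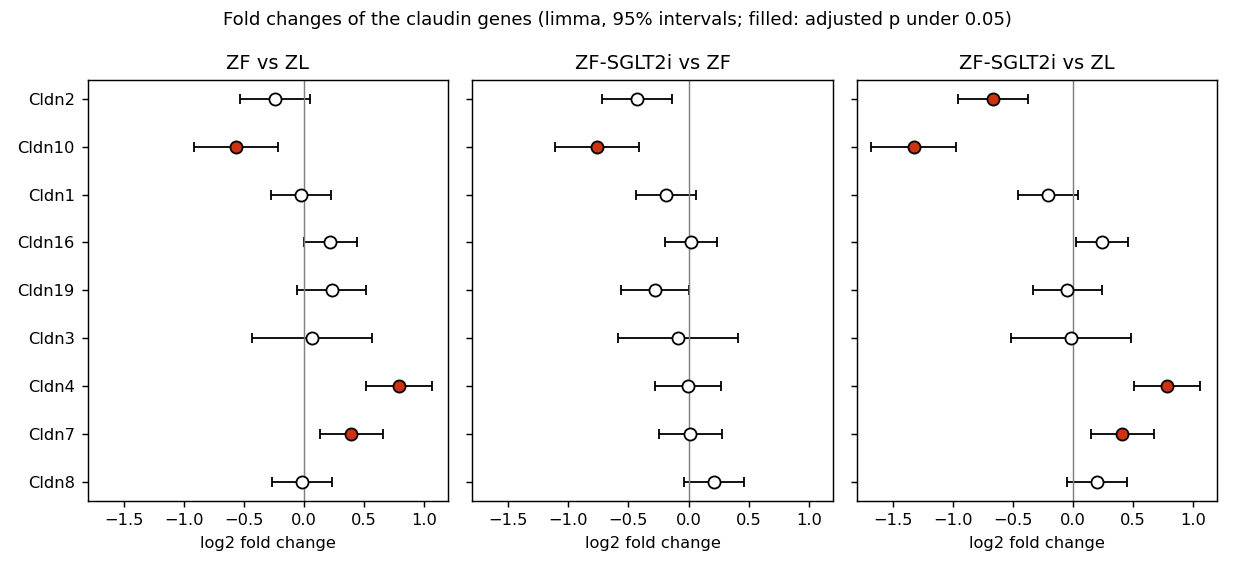
Log2 fold changes (horizontal axes) of the 9 claudins in the 3 comparisons, as limma estimates with 95% intervals. Filled circles mark an adjusted p under 0.05, of which there are 3 between ZF and ZL, 1 for ZF-SGLT2i against ZF and 4 for ZF-SGLT2i against ZL.

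Cldn10 is shown with the 250 bases before its transcription start, since it was called in all 3 comparisons. The sequence is from RefSeq on rat build GRCr8, chr15:102269608-102269857, plus strand, and is printed 5′ to 3′. RefSeq sequences of this kind were at hand for 7 of the 9 genes, without Cldn2 and Cldn4. Capitals mark the match to the letters CCAAT (the CCAAT box), searched on both strands.
Cldn10: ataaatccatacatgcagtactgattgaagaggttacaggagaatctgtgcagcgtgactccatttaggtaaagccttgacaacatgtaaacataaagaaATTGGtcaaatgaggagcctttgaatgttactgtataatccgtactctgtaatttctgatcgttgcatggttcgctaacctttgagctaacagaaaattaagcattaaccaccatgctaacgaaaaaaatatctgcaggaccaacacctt
The match, 150 bases before the start, reads ATTGG on this strand, and 34.02% of 33469 rat promoters of the same length hold CCAAT on one strand or the other. Cldn10 has alternative first exons that give its proximal tubule and thick limb forms, which a gene-level value does not separate, and the sequence belongs to 1 start.

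Proximal tubule marker genes moved in part with these claudins. The list held 12 genes, all tested, and the one with the most reads was Lrp2, the endocytic receptor megalin. Its summed level was 25637, 23340, 25406 and 25158 CPM in ZL rats 1 to 4, 18936, 18617, 22505 and 17104 CPM in ZF rats 2 to 5, and 18471, 16739, 17388 and 14320 CPM in ZF-SGLT2i rats 2, 3, 4 and 6. The sums of the ZL rats all lay above those of the other rats, and ZF-SGLT2i rat 6, with the least Cldn2 and Cldn10, had the lowest sum. Between ZF and ZL, 3 markers were called lower and 1 higher, for ZF-SGLT2i against ZF 1 was called lower, and for ZF-SGLT2i against ZL 5 were called lower. The amino acid transporters Slc7a13 (log2 difference -3.98 between ZF and ZL, limma adjusted p = 0.00601) and Slc3a1 (-1.34, adjusted p = 0.00978) fell furthest, and both calls were lost without ZL rats 1 and 4 (log2 differences -2.60 and -0.75, adjusted p = 0.0587 and 0.0702). With group means removed, the correlation of Cldn10 with the 12 markers over the 12 rats ran, as a description, from r = -0.45 for Slc5a2 to 0.91 for Slc3a1, and 7 of the 12 values lay below 0. The median over the 12 markers was -0.19, -0.21 and -0.22 in the 3 comparisons, and quantile normalization turned the first of these to 0.04 and brought the last to -0.03. Without both ZL rats 1 and 4 the first and last medians were -0.32 and -0.50, and 2 and 7 of the 12 markers were called. In bulk RNA, fewer cells of a type and less RNA per cell cannot be told apart.

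Each claudin was therefore also expressed relative to the markers of its segment, as log2(CPM + 1) of the gene minus the mean log2(CPM + 1) of the markers, in 12 such ratios and 36 exact permutation tests (two-sided, unadjusted, smallest possible p 0.0286). Cldn10 relative to the proximal tubule markers was lower by 0.54 in ZF-SGLT2i than in ZF rats and lower by 0.55 than in ZL rats, without overlap (p = 0.0286 for each), and differed by -0.01 between ZF and ZL (exact permutation p = 0.971). With the median of the markers in place of the mean, these differences were -0.60, -0.94 and -0.35. With ZL rats 1 and 4 left out, as values with no test, the last 2 were -0.42 and 0.13 with the mean and -0.71 and -0.12 with the median. Relative to the thick ascending limb markers, the other segment of Cldn10, it was lower by 0.73 in treated than in ZF rats and by 1.15 in treated than in ZL rats, again without overlap (exact permutation p = 0.0286 for each), and by 0.99 below ZL rats 2 and 3 alone. Between ZF and ZL this ratio differed by -0.42 with the mean (exact permutation p = 0.143), by -0.48 with the median (p = 0.2) and by -0.27 with the mean without ZL rats 1 and 4, each with overlap. Cldn2 relative to the proximal tubule markers overlapped between the groups in all 3 comparisons, with differences of 0.31, -0.21 and 0.11, and the first and last of these turned to -0.02 and -0.28 with the median. Without both ZL rats 1 and 4 they were 0.35, then without overlap, and 0.14 with the mean and 0.10 and -0.16 with the median.

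**Figure D3:**
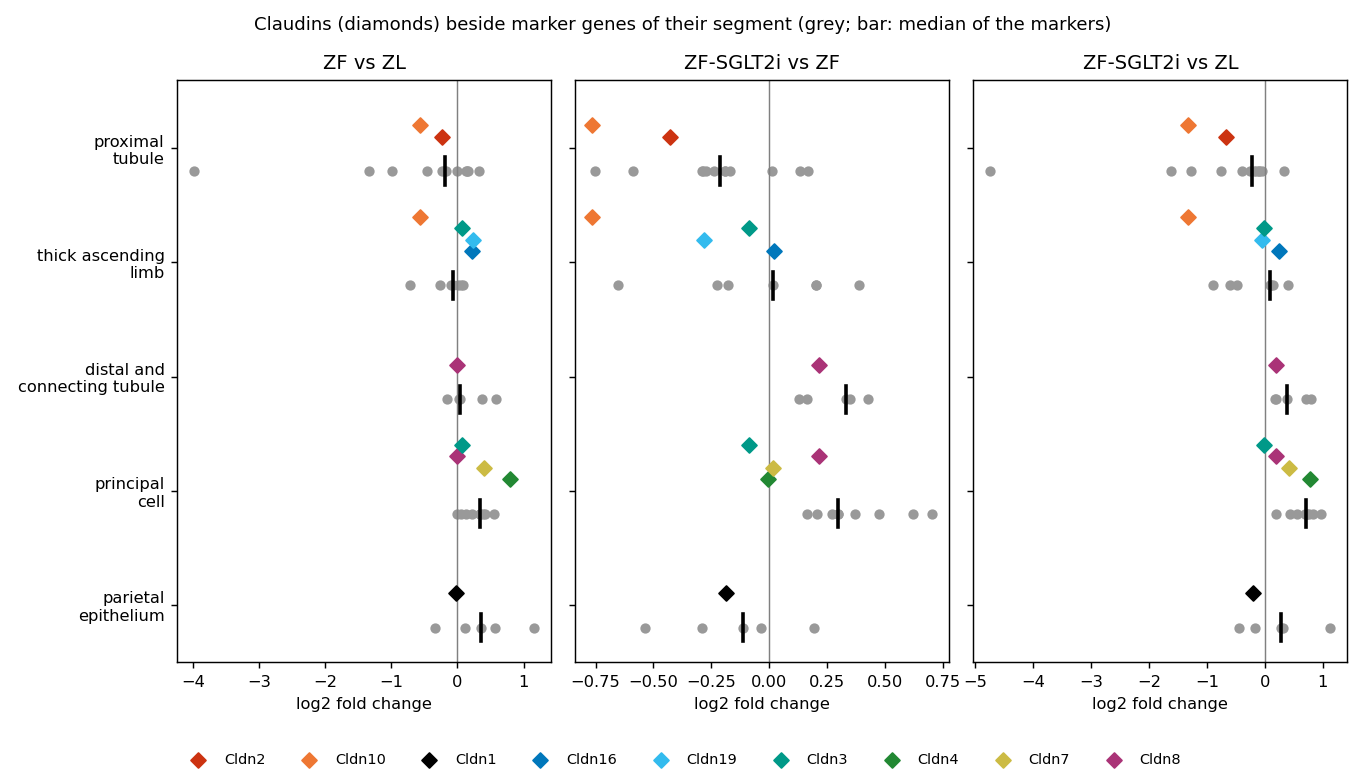
Log2 fold change (horizontal axes, which differ in range between panels) of each claudin, as a diamond, above the marker genes of its segment, as grey points with a bar at their median. Cldn10 lies to the left of the median of the proximal tubule markers and of the thick ascending limb markers in each comparison, and Cldn4 lies right of the principal cell median in ZF against ZL and left of it in ZF-SGLT2i against ZF.

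Cldn4, a barrier claudin of the collecting duct, had the largest rise among the 9 genes. ZL rats 1 to 4 measured 21.4, 21.8, 22.2 and 18.3 CPM, ZF rats 2 to 5 measured 48.8, 34.8, 27.9 and 38.6 CPM, and ZF-SGLT2i rats 2, 3, 4 and 6 measured 37.6, 38.5, 34.9 and 35.8 CPM. The ZL rats all lay below the 8 fatty rats, and the treated rats were grouped more tightly than the untreated ones, with an SD of 1.63 CPM against 8.74 CPM around means of 36.7 and 37.5 CPM, a difference in spread that was not tested. The log2 difference was 0.79 between ZF and ZL (SE 0.13, limma adjusted p = 0.00147), a 1.73-fold level, and 0.78 for ZF-SGLT2i against ZL (SE 0.13, adjusted p = 0.000726). Both passed under all 22 alternatives and without both ZL rats 1 and 4 (0.71 for each). In ZF-SGLT2i against ZF the difference was 0.00 with a 95% interval of -0.28 to 0.27 (adjusted p = 0.99).

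Cldn7, a claudin found along the lateral membrane of distal tubule and collecting duct cells, changed in the same direction by less. It measured 17.2, 23.3, 16.8 and 16.6 CPM in ZL rats 1 to 4, 23.9, 25.1, 20.1 and 29.3 CPM in ZF rats 2 to 5, and 24.1, 23.6, 23.5 and 27.5 CPM in ZF-SGLT2i rats 2, 3, 4 and 6. ZL rat 2 stood apart from the other ZL rats and above ZF rat 4, and the treated rats all lay above the ZL rats, by little over ZL rat 2. The log2 difference was 0.39 between ZF and ZL (SE 0.12, limma adjusted p = 0.0374; exact permutation p = 0.0571), 0.02 for ZF-SGLT2i against ZF (95% interval -0.24 to 0.28) and 0.41 for ZF-SGLT2i against ZL (SE 0.12, adjusted p = 0.0231). The first call was lost without ZL rat 1, 3 or 4 (adjusted p = 0.0952, 0.0889 and 0.0854), ZF rat 2, 3 or 5 (0.071, 0.0873 and 0.108) or ZF-SGLT2i rat 3 (0.0504), in a fit of those groups alone (0.0775) and without both ZL rats 1 and 4 (log2 difference 0.29, adjusted p = 0.252). The call for ZF-SGLT2i against ZL was lost without ZL rat 1, 3 or 4 (0.0639, 0.0562 and 0.0585), ZF-SGLT2i rat 6 (0.0746) or both ZL rats 1 and 4 (0.30, adjusted p = 0.196).

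The 250 bases before the start of Cldn7 are shown because they held 4 copies of the E-box CAGGTG, a sequence bound by the epithelial repressors Snai1, Snai2 and Zeb1. They were read from RefSeq on GRCr8, chr10:55188420-55188669, plus strand, 5′ to 3′. Capitals mark the E-box on either strand, where the reverse reads CACCTG, and the GC box GGGCGG, which reads CCGCCC here.
Cldn7: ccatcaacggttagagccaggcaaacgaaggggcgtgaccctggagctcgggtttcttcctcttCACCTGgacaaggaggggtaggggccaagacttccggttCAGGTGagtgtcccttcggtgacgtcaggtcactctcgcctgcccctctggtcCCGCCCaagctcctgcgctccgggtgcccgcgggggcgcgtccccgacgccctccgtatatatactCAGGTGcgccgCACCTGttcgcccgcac
The E-boxes began 186, 147, 28 and 17 bases before the start. Of the 33469 promoters, 15.9% held CAGGTG on either strand and 30.47% held GGGCGG. Cldn3 held 1 E-box, and the other 5 claudins with a sequence held none. TATAAA (12.93% of promoters) and AACCGGTT, the site of grainyhead-like factors (0.1464%), were in none of the 7 sequences. These matches describe letters and were not tested for binding.

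Cldn8, made from the distal convoluted tubule to the collecting duct, passed in no comparison. It measured 155, 173, 142 and 115 CPM in ZL rats 1 to 4, 128, 153, 132 and 163 CPM in ZF rats 2 to 5, and 153, 153, 182 and 178 CPM in ZF-SGLT2i rats 2, 3, 4 and 6. The 3 groups overlapped. The log2 difference was -0.01 between ZF and ZL (95% interval -0.26 to 0.23, limma adjusted p = 0.95), 0.21 for ZF-SGLT2i against ZF (-0.04 to 0.46, adjusted p = 0.376) and 0.20 for ZF-SGLT2i against ZL (-0.05 to 0.45, adjusted p = 0.222). Cldn3, a barrier claudin of the thick limb and collecting duct, ranged from 8.06 to 17.7 CPM among ZL rats, from 8.46 to 17.0 CPM among ZF rats and from 10.1 to 12.1 CPM among treated rats. It was the most variable of the 9 genes in the fit, with an SE of 0.23 and log2 differences of 0.07, -0.09 and -0.02 in the 3 comparisons. Cldn3 and Cldn4 are neighbours on the chromosome in the RefSeq annotation, and Cldn4 alone of the pair was called. The ratio of Cldn4 to Cldn8 was 0.145 ± 0.0158 for the lean rats, 0.264 ± 0.0785 for ZF and 0.222 ± 0.0302 for treated rats (SD, n = 4), with all ZL rats below all fatty rats (exact permutation p = 0.0286 against each group), and it averaged 0.141 in ZL rats 2 and 3.

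Principal cells are the main cells of the collecting duct that carry these claudins. The 9 markers were all tested, and Hsd11b2, the enzyme that shields the mineralocorticoid receptor from glucocorticoids, had the most reads. Their summed level was 1513, 1884, 1384 and 1170.3 CPM in ZL rats 1 to 4, 1724, 2119, 1583 and 2202 CPM in ZF rats 2 to 5, and 2192, 2409, 2414 and 2819 CPM in ZF-SGLT2i rats 2, 3, 4 and 6. ZF rat 5 just exceeded the lowest treated rat, and ZL rat 2 lay within the ZF range. Called higher were 1 marker between ZF and ZL, 1 for ZF-SGLT2i against ZF and 8 for ZF-SGLT2i against ZL, and none was called lower. The medians were 0.35, 0.30 and 0.71. With those 2 lean rats, ZL 1 and 4, left out, the counts were 0, 2 and 5 and the medians 0.15, 0.30 and 0.49. Among them, the water channel gene Aqp2 rose by 0.97 (limma adjusted p = 0.000742) and the sodium channel subunit gene Scnn1g by 0.83 (adjusted p = 0.000315) for ZF-SGLT2i against ZL. Aqp2 was also the marker called for ZF-SGLT2i against ZF, a call that 9 of the 12 single-rat omissions ended (limma adjusted p = 0.0546 to 0.139). Of 8 intercalated cell markers, 5 were called higher for ZF-SGLT2i against ZL and none in the other comparisons. This pattern depended on ZL rats 1 and 4. Without both, 1 was called for ZF against ZL, 5 for ZF-SGLT2i against ZF and 1 for ZF-SGLT2i against ZL. The median for ZF-SGLT2i against ZL was 0.47 with all rats and 0.24 without these 2. The part of the principal cell list in the differences of Cldn4 and Cldn7 was not tested beyond the ratios that follow, and that of the intercalated cell list was not tested.

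Relative to the principal cell markers, Cldn4 was 0.52 higher in ZF rats than in lean controls and lower by 0.38 in ZF-SGLT2i than in ZF rats, each without overlap (exact permutation p = 0.0286). With the median of the markers the first difference was 0.30 (exact permutation p = 0.114) and the second -0.37 (0.0571). Between ZF-SGLT2i and ZL rats this ratio overlapped, with a difference of 0.13 with the mean and -0.07 with the median (exact permutation p = 0.314 and 0.429). Cldn7 relative to the same markers was lower by 0.36 in ZF-SGLT2i than in ZF rats with the mean and by 0.35 with the median (exact permutation p = 0.0286 for each). Between ZF and ZL rats the Cldn7 ratio overlapped, with differences of 0.12 and -0.09 (exact permutation p = 0.229 and 0.457). For ZF-SGLT2i against ZL it was -0.24 with overlap for the mean (exact permutation p = 0.0571) and -0.44 without overlap for the median (p = 0.0286). In none of these tests did the Cldn7 ratio of the fatty rats lie above that of the lean rats without overlap. Cldn8 relative to these markers fell by 0.29 from ZL to ZF rats and by 0.45 from ZL to ZF-SGLT2i rats (exact permutation p = 0.0286 for each), and by 0.50 and 0.65 with the median. Relative to the 5 markers of the distal convoluted and connecting tubule these differences were -0.19 and -0.25 without overlap with the mean (exact permutation p = 0.0286 for each), but -0.05 and 0.00 with overlap with the median. In ZL rats the ratio of Cldn8 to the principal cell markers had an SD of 0.014 with the mean and of 0.11 with the median. Without both ZL rats 1 and 4 the differences from ZL relative to the principal cell markers, with the mean, were 0.56 and 0.18 for Cldn4, 0.14 and -0.23 for Cldn7 and -0.28 and -0.45 for Cldn8 in ZF and ZF-SGLT2i rats, and that of Cldn7 in ZF-SGLT2i rats no longer overlapped.

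**Figure D4:**
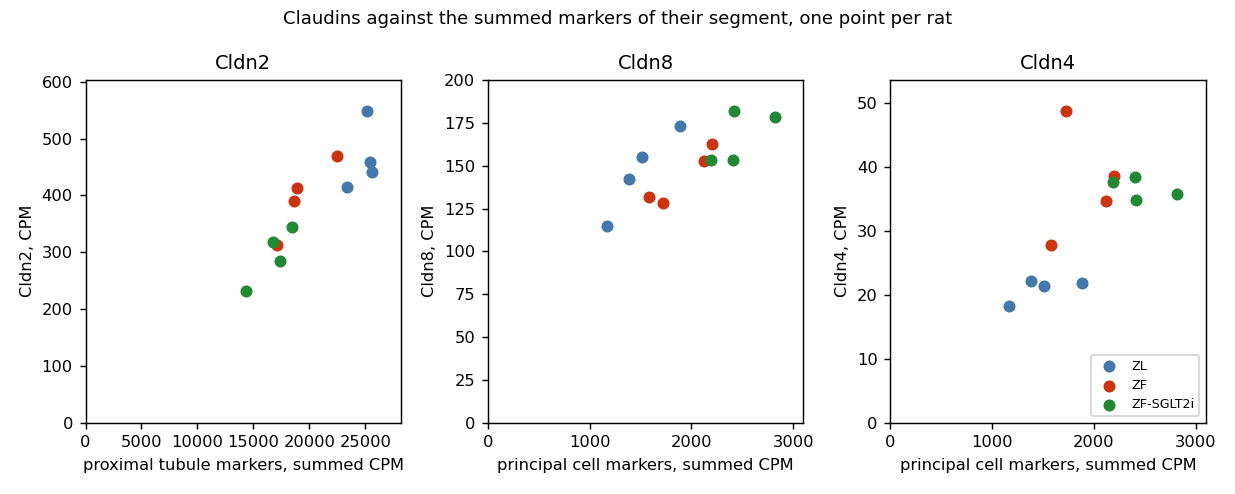
CPM of Cldn2, Cldn8 and Cldn4 (vertical axes) against the summed CPM of the proximal tubule or principal cell markers (horizontal axes), with 1 point per rat and all axes from 0. Among ZL rats Cldn8 (115 to 173 CPM) is ordered as the marker sum, and Cldn4 separates ZL rats (18.3 to 22.2 CPM) from all fatty rats.

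Genes of injured tubule cells also moved in the fatty rats. Of the 9 tested, 6 were called higher between ZF and ZL, 1 lower for ZF-SGLT2i against ZF, and 5 higher and 1 lower for ZF-SGLT2i against ZL, with medians of 0.62, -0.29 and 0.48. Their summed level, led by Spp1, the gene of osteopontin, was 572, 521, 470.1 and 578 CPM in ZL rats 1 to 4, 2108, 856, 1623 and 731 CPM in ZF rats 2 to 5, and 1323, 1292, 964 and 593 CPM in ZF-SGLT2i rats 2, 3, 4 and 6. All fatty rats lay above all lean rats, and of the ZF rats the one with the highest sum, rat 2, had the most Cldn4 and the one with the next highest, rat 4, the least. Havcr1, which encodes a kidney injury molecule of the proximal tubule, had the largest log2 differences of the list, 3.01 between ZF and ZL (limma adjusted p = 0.00376) and 2.12 for ZF-SGLT2i against ZL (adjusted p = 0.0147). In the absence of ZL rats 1 and 4, 4 and 3 of the 9 genes were called in these comparisons. Both lower calls were of Vcam1. They were lost in 7 of the 12 single-rat omissions for ZF-SGLT2i against ZF (limma adjusted p = 0.0734 to 0.12) and in 6 for ZF-SGLT2i against ZL (0.0586 to 0.1). The part of this list in the claudin differences was not tested.

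The claudins of the thick ascending limb, Cldn16 and Cldn19, did not pass. Cldn16 measured 33.1, 30.1, 27.1 and 36.6 CPM in ZL rats 1 to 4, 42.8, 35.4, 35.1 and 34.9 CPM in ZF rats 2 to 5, and 32.9, 40.1, 41.3 and 36.0 CPM in ZF-SGLT2i rats 2, 3, 4 and 6. ZL rats 1 and 4 lay within the range of the fatty rats, and ZF rat 2 stood above the other ZF rats. The log2 difference was 0.22 between ZF and ZL (limma adjusted p = 0.148), 0.02 for ZF-SGLT2i against ZF, and 0.24 for ZF-SGLT2i against ZL (95% interval 0.02 to 0.46 before adjustment, adjusted p = 0.0953), and the last passed without ZL rat 4 (0.31, adjusted p = 0.0401) and without both ZL rats 1 and 4 (0.38, adjusted p = 0.0361). Cldn19 lay between 17.2 and 25.6 CPM in ZL, between 20.8 and 29.9 CPM in ZF and between 17.2 and 21.4 CPM in ZF-SGLT2i rats. Its log2 differences were 0.23, -0.28 and -0.05, with adjusted p of 0.246, 0.304 and 0.82 in limma. The ratio of Cldn19 to Cldn16 was 0.639 ± 0.0453, 0.646 ± 0.0466 and 0.524 ± 0.0847 in the ZL, ZF and ZF-SGLT2i groups (SD, n = 4), and the groups overlapped.

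Of 7 tested thick ascending limb markers, Egf, the gene of epidermal growth factor, was called lower between ZF and ZL (log2 difference -0.72, limma adjusted p = 0.00143). In ZF-SGLT2i against ZL, Egf and Umod were lower. The call of Umod, the gene of uromodulin, was lost without ZL rat 1 or 4 or ZF-SGLT2i rat 2, 3 or 6 (adjusted p = 0.0502 to 0.0902). The markers summed to between 6673 and 8240 CPM in ZL, between 5883 and 7588 CPM in ZF and between 4830 and 5686 CPM in ZF-SGLT2i rats, with most reads on Umod. Relative to these markers, Cldn16 was higher by 0.37 in ZF and by 0.42 in ZF-SGLT2i than in ZL rats without overlap (exact permutation p = 0.0286 for each), but by 0.30 and 0.28 with overlap when the median of the markers was used. Without both ZL rats 1 and 4 these were 0.47 and 0.52 with the mean and 0.62 and 0.59 with the median, all without overlap. Cldn19 relative to the same markers differed by 0.38, -0.24 and 0.13 in the 3 comparisons with overlap (exact permutation p = 0.0857, 0.0857 and 0.286), and from ZL rats 2 and 3 alone by 0.53 in ZF and 0.29 in ZF-SGLT2i rats without overlap. The differences of Cldn3 were 0.21, -0.05 and 0.16 relative to these markers and -0.21, -0.47 and -0.67 relative to the principal cell markers, all with overlap. With the median the last was -0.87 without overlap (exact permutation p = 0.0286). Without both ZL rats 1 and 4, Cldn3 relative to the thick ascending limb markers was higher than in ZL by 0.53 in ZF and 0.48 in ZF-SGLT2i rats, without overlap. Relative to the principal cell markers it then differed from ZL by 0.27 in ZF and -0.20 in ZF-SGLT2i rats, with overlap. With the median these were 0.09 with overlap and -0.36 without overlap.

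Cldn1 ranged from 20.0 to 26.4 CPM in ZL, from 18.4 to 25.0 CPM in ZF and from 17.1 to 22.2 CPM in ZF-SGLT2i rats, and the groups overlapped. Its log2 differences were -0.03, -0.19 and -0.21, with a limma adjusted p of 0.905, 0.447 and 0.196. Of the 5 parietal epithelium markers tested, Cd44, an adhesion receptor of activated parietal cells, rose by 1.16 between ZF and ZL (adjusted p = 3.02e-05). The other called marker of this comparison, the adhesion gene Ncam1, differed by 0.57 and lost its call without ZL rat 1 or 3 or ZF rat 2 or 5. Akap12, the marker with the most reads, averaged 54.5 ± 7.14, 43.1 ± 7.81 and 39.6 ± 5.54 CPM in the ZL, ZF and ZF-SGLT2i groups (SD, n = 4). It was not called between ZF and ZL (-0.34, limma adjusted p = 0.0862), and for ZF-SGLT2i against ZL, where 2 markers were called higher, it was called lower (-0.45, adjusted p = 0.0199), a call lost without ZL rat 2 or ZF-SGLT2i rat 3. The summed markers lay between 90.3 and 116 CPM in ZL and between 106 and 136 CPM in ZF rats. Relative to them Cldn1 was lower by 0.43 in ZF-SGLT2i than in ZL rats (exact permutation p = 0.0286) and by 0.40 in ZF than in ZL rats (exact permutation p = 0.0857). With the median of the markers these were 0.74 (exact permutation p = 0.0286) and 0.36 (p = 0.0857), and the difference for ZF-SGLT2i against ZF was -0.38 with the median (p = 0.0571) and -0.03 with the mean (p = 0.8). When ZL rats 1 and 4 were omitted, the differences from ZL were -0.65 in ZF-SGLT2i and -0.62 in ZF rats with the mean. With the median they were -0.90 and -0.52, and all of these were without overlap.

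The table held 11 claudins besides these 9, of which 9 were tested. Called in both comparisons with ZL were Cldn5, the claudin of endothelial junctions, Cldn6, an embryonic epithelial claudin, and Cldn15, a pore-forming claudin best known from the intestine. Cldn5 measured 20.7, 25.1, 18.5 and 21.0 CPM in ZL, 32.9, 30.6, 29.7 and 35.7 CPM in ZF, and 27.3, 31.0, 38.2 and 31.5 CPM in ZF-SGLT2i rats. All fatty rats lay above all ZL rats, with log2 differences of 0.58 in ZF (limma adjusted p = 0.00336) and 0.56 in ZF-SGLT2i rats (adjusted p = 0.00204). Of 8 endothelial markers, 2 were called higher in each of these comparisons, and their sum lay between 486 and 672 CPM in ZL, between 671 and 740 CPM in ZF and between 616 and 830 CPM in ZF-SGLT2i rats. Kdr had the most reads of them. Their part in the Cldn5 difference was not tested. Cldn6 averaged 7.22 ± 0.68, 10.2 ± 1.55 and 12.6 ± 0.401 CPM in ZL, ZF and ZF-SGLT2i rats (SD, n = 4), with log2 differences from ZL of 0.44 (adjusted p = 0.0109) and 0.73 (adjusted p = 0.000296). Cldn15 was rare, with 4 to 25 reads in a library, and differed from ZL by 0.63 in ZF (adjusted p = 0.0212) and 0.93 in ZF-SGLT2i rats (adjusted p = 0.00155), the former being lost without ZL rat 1 or 3 or ZF rat 2 or 5 (adjusted p = 0.0548 to 0.062). At such low levels the added 1 CPM shrinks the difference, and with a pseudocount of 0.1 those of Cldn15 were 1.09 and 1.53. Without both ZL rats 1 and 4 the ZF calls of Cldn6 and Cldn15 were lost (adjusted p = 0.0932 and 0.0578) and that of Cldn5 was kept. Cldn12, with the most reads of the 11, was not called, with log2 differences of -0.08, -0.07 and -0.15. Cldn9, Cldn11, Cldn17, Cldn20 and Cldn22 were not called, and Cldn23 and Cldn24, at mean levels of 0.674 and 0.598 CPM, were too low to be tested.

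Junction scaffolds and polarity proteins anchor claudins to the cytoskeleton. Of 22 tested scaffold and polarity genes, 3 were called higher and 1 lower between ZF and ZL, with a median of 0.04. Of all genes tested, 8.19% were called higher and 10.6% lower in this comparison. Tjp1, which encodes the scaffold ZO-1 that binds claudin tails, measured 209, 221, 191 and 213 CPM in ZL, 268, 239.9, 253 and 273 CPM in ZF, and 237, 257, 279.5 and 274 CPM in ZF-SGLT2i rats. Each fatty rat exceeded each lean rat, by log2 0.31 in ZF (limma adjusted p = 0.0079) and 0.33 in ZF-SGLT2i rats (adjusted p = 0.00358). Ybx3, the ZO-1-associated Y-box factor, rose by 0.25 between ZF and ZL (adjusted p = 0.0144). Arhgef2, a guanine nucleotide exchange factor held at junctions, differed by 0.21 and Arhgap17, a Cdc42 inactivator, by -0.33, both losing the call without ZL rat 1, 3 or 4 or ZF rat 2 or 3 (adjusted p up to 0.104), and Arhgef2 also without ZF rat 5. With ZL rats 1 and 4 left out, Tjp1 was the 1 gene of the list called between ZF and ZL, beside 9.01% of all genes. In ZF-SGLT2i against ZF, Amotl2 was the 1 called gene of this list (0.29, adjusted p = 0.0485), beside 3.15% of all genes. Its call was ended by 9 of the 12 single-rat omissions. In ZF-SGLT2i against ZL, 4 were called higher and 3 lower, beside 12.4% and 15.0% of all genes. Among them were Tjp3, the scaffold ZO-3 (0.67, adjusted p = 0.009), Magi2 (0.60, adjusted p = 0.00293), Arhgap17 (-0.48, adjusted p = 0.00319) and Mpdz, the multi-PDZ scaffold MUPP1 (-0.36, adjusted p = 0.00452).

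Among 11 tested membrane proteins of the junction other than claudins, Igsf5, a junctional adhesion molecule, was the 1 gene called between ZF and ZL (0.27, limma adjusted p = 0.0101), none was called for ZF-SGLT2i against ZF, and 4 were called higher for ZF-SGLT2i against ZL. These were Esam (0.49, adjusted p = 0.00292), Igsf5 (0.48, adjusted p = 0.000163), F11r, which encodes JAM-A (0.31, adjusted p = 0.00145), and Jam3 (0.27, adjusted p = 0.0404), of which Jam3 lost its call in 7 of 12 single-rat omissions. Ocln, the gene of occludin, was not called. For this list and the regulators that follow, the shares of all genes called were 18.8%, 3.15% and 27.4% in the 3 comparisons. Of 14 tested genes that regulate claudins, 1 was called lower between ZF and ZL, the epithelial transcriptional repressor gene Ovol1 (-0.29, adjusted p = 0.0171; 0.0538 and 0.053 without ZL rat 1 and ZF rat 2). Vdr, the vitamin D receptor, was the 1 regulator called for ZF-SGLT2i against ZF. It measured 178, 191, 208 and 127 CPM in ZL, 174, 201, 165 and 222 CPM in ZF, and 339.9, 393, 549 and 367 CPM in ZF-SGLT2i rats. The treated rats lay far above the rest, by 1.09 on the log2 scale over ZF (adjusted p = 0.00264) and 1.22 over ZL (adjusted p = 0.000185). In ZF-SGLT2i against ZL, 3 regulators were higher and 3 lower, including Wnk4, a kinase that acts on claudin phosphorylation and distal salt transport (0.61, adjusted p = 0.00307). Without both ZL rats 1 and 4, Ovol1 lost its call between ZF and ZL. For ZF-SGLT2i against ZL, 2 of the 14 regulators were then called, beside 15.3% of all genes.

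Over the 12 rats, the genes whose values ran most like those of each claudin, out of 8630 whose mean reached 10 CPM, were listed by Pearson correlation as a description. The rats share their groups, so a common group difference raises these values. For Cldn10 they were Hsp90b1, Kap and Tkfc (r = 0.98, 0.97 and 0.97), and for Cldn2 Ctsl, Cdh2 and Stmn1 (r = 0.96, 0.96 and 0.95). Cdh2, the N-cadherin of proximal tubule cells, also ran with Cldn2 once each group's mean was removed (r = 0.93). For Cldn4 they were Itgb4, Arl4c and Arhgef40 (r = 0.95 for each), and for Cldn7 Aff4, Lrch1 and Cdc42bpb (r = 0.96, 0.95 and 0.95). Cldn8 ran most like Aqp4, the basolateral water channel of principal cells, Atp6v1b1, a proton pump subunit of intercalated cells, and Tmem52b (r = 0.94, 0.94 and 0.93), and after removal of group means most like Pfkm, Cdh1 and Defb1 (r = 0.99, 0.98 and 0.97). For Cldn1 they were Tstd2, Aqr and Ptpn23 (r = 0.91, 0.91 and 0.86), and for Cldn3 Fgfr4, Plxdc2 and Mast3 (r = 0.90, 0.86 and 0.81). For Cldn16 they included Itm2c and Rela (r = 0.89 for each), and for Cldn19 they were Frmd4a, Sned1 and Pdgfb (r = 0.90, 0.87 and 0.84). Between the claudins themselves r was 0.92 for Cldn2 with Cldn10, 0.79 for Cldn4 with Cldn7 and 0.56 for Cldn16 with Cldn19, and 0.73, 0.38 and 0.71 with group means removed.

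The tissue label was checked against marker genes. The proximal tubule gene Lrp2 lay at 5057 to 11361 CPM, while Slc14a2, which marks the inner medulla, stayed at or under 3.34 CPM and was at 0 in 3 rats. Slc14a2 averaged 0.31, 0.26 and 1.51 CPM in ZL, ZF and ZF-SGLT2i rats, with its highest value in ZF-SGLT2i rat 6. It held at most 30 reads in a library and was too low to be tested. The urothelial markers summed to at most 4.04 CPM. The 5 genes of the inner medulla and thin limb list, with most reads on Slc5a3, summed to 179, 139.9, 125 and 256 CPM in ZL rats 1 to 4 and to 117 to 148 CPM in the fatty rats. ZL rats 1 and 4 were highest, as they were for Cryab, a member of this list, and whether the share of medulla differed between the samples was not tested. The share of reads assigned to ribosomal RNA genes ranged from 7.25 to 12.0% for ZL, from 8.82 to 12.0% for ZF and from 11.5 to 15.2% for treated rats, and its part in the differences was not tested.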

How the data were processed

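Renal cortex RNA of 12 rats (3 groups of 4, grouped by the sample labels) was sequenced as strand-specific, ribosomal RNA-depleted paired-end libraries. Per the submitters' processing notes, Trimmomatic 0.38, RSEM 1.3.0, Bowtie2 and edgeR were used with rat build rn6. The deposited values are a normalized signal made by the authors: within a rat, every value is the read count of that gene multiplied by 1 factor, and this factor is what TMM scaling in edgeR gives for CPM, so the unit is called CPM here. The table holds 13151 genes, each with at least 12 reads over the 12 rats. Depth was 8824980 to 12210257 reads per rat. Replicates are rats, so p-values measure the spread between them.

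Genes with at least 1 CPM in at least 4 rats (11633) were tested on log2(CPM + 1), a scale that understates the changes of low genes, using limma 3.58.1 (R 4.3.3) and 1 fit of 3 groups with a mean-variance trend. Benjamini-Hochberg adjustment ran over all 11633. Single values were compared by exact permutation (70 assignments). The alternatives were edgeR 4.0.16 and DESeq2 1.42.0 on the recovered reads, other scalings, filters, pseudocounts, array weights, pairwise fits, a replicate block and omission of each rat. Omission of ZL rats 1 and 4 together was added after the data were seen. The procedure was tested on simulated data. Where some genes were changed, limma, edgeR and DESeq2 called 8, 9 and 22 unchanged genes. Where no gene was changed, they called 0, 0 and 5 of 11577. Claudins and gene lists were chosen with earlier results of these data known, and some genes of the lists and correlations are not reported here. Text names the 9 claudins, the other claudins, called genes of the junction lists (at most 5 a list in each comparison), leading marker genes and the 3 genes most correlated with each claudin. Transcript lengths were not used, so levels are not compared between genes. Promoter sequences are from RefSeq (GRCr8).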

Additional observations from a re-analysis of the deposited data

Results flagged for a closer look

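In groups of 4 rats, 18 values of 267 groups examined (89 genes) stood apart from their group by Dixon's criterion, where chance would give about 13.35, and 5 of the 18 were claudins. Cldn7 in ZL rat 2 was 23.3 CPM against 16.6 to 17.2 CPM in the other ZL rats, and in ZF-SGLT2i rat 6 it was 27.5 CPM against 23.5 to 24.1 CPM. Cldn16 in ZF rat 2 was 42.8 CPM against 34.9 to 35.4 CPM. Cldn9 in ZF rat 3 was 6.31 CPM against 4.81 to 4.89 CPM. Cldn23 in ZF rat 5 was 0.984 CPM against 0.575 to 0.601 CPM.

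ZL rat 2, high in Cldn7, was also high in the podocyte gene Nphs1 (173 CPM, others 132 to 134) and in Spp1 (178 CPM, others 166 to 167). ZL rat 4 was low in Slc22a6 (525 CPM, others 707 to 726) and Egf (1735 CPM, others 2139 to 2188). ZL rat 3 was low in Col1a1 (54.3 CPM, others 83.1 to 88.5) and Pdgfra (133 CPM, others 153 to 156), and ZL rat 1 was high in Cd74 (734 CPM, others 612 to 619). ZF rat 2 was high in Cryab (43.1 CPM, others 33.8 to 34.3), and ZF rat 5 in Ehd3 (60.8 CPM, others 52.8 to 53.2). Among treated rats, ZF-SGLT2i rat 2 was low in Nphs1 (173 CPM, others 203 to 207) and Podxl (881 CPM, others 1119 to 1161), rat 6 was low in Cd74 (579 CPM, others 803 to 817), and rat 3 was high in Upk1b (1.21 CPM, others 0.503 to 0.571).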

How the results depend on the processing

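Of 2613 values compared (119 pairs of gene and comparison, 22 alternatives), 2312 kept direction and side of the threshold, 267 dropped below it, 3 passed it and 31 changed sign, 27 of these on leaving out 1 rat. All sign changes were in claudin differences that had not been called. Genes called numbered 2185 for ZF against ZL, 366 for treated against untreated ZF rats and 3184 for treated against ZL rats. Array weights raised the middle count to 689 and DESeq2 to 641. Leaving out each rat gave 1389 to 2453, 176 to 570 and 2241 to 3302. The count for ZF against ZL was 1389 without ZL rat 1. The middle count was lowest without ZF-SGLT2i rat 3 (176), ZF-SGLT2i rat 6 (182), ZF rat 3 (184), ZF rat 4 (187), ZF rat 2 (207) and ZF-SGLT2i rat 4 (210), and highest without ZF rat 5 (570).

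Of the 9 claudins, 3, 1 and 4 were called in these comparisons. A fit of the ZF and ZL rats alone called 1, and DESeq2 called 2 (Cldn2 with Cldn10) for treated against untreated ZF rats. Leaving out single rats gave 1 to 3, 0 to 2 and 3 to 4. The first was 1 without ZL rat 1, 3 or 4 or ZF rat 3 or 5, and the second was 0 without ZF rat 2 or 4 or ZF-SGLT2i rat 2, 3 or 6 and 2 without ZF rat 5. With ZL rats 1 and 4 both left out, an alternative chosen after the data were seen, 1048 and 1778 genes were called in the comparisons with ZL and 1 and 4 claudins. Cldn3 (0.33) and Cldn19 (0.14), neither of them called, changed sign there for treated against ZL rats.

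Replicate numbers are shared by the labels of the groups, but same-numbered rats did not deviate together (r = -0.38, 0.09 and 0.13 for ZF with ZL, 0.01, -0.02 and 0.25 for treated with untreated ZF rats). With a replicate block, which uses 3 numbers per comparison, 807, 223 and 1502 genes were called. Of 86 calls in genes other than claudins, 41 were lost with the block, that of Tjp1 for ZF against ZL (0.0738 in limma) among them. The block left 1 claudin (Cldn4) called for ZF against ZL, where Cldn10 had an adjusted p of 0.0892 and Cldn7 of 0.18 in limma. Cldn7 also lost its call for treated against ZL rats (0.104), and Cldn5 (0.0631), Cldn6 (0.0906) and Cldn15 (0.171) lost theirs for ZF against ZL. Signs turned with the block for Cldn4 in treated against untreated ZF rats (0.030) and for Cldn19 in treated against ZL rats (0.024).

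Among differences that were not called, Cldn8 turned to 0.065 for ZF against ZL with quantile normalization and Cldn7 to -0.012 for treated against untreated ZF rats with array weights. Leaving out single rats gave sign changes in ranges of -0.085 to 0.060 for Cldn1, -0.11 to 0.28 for Cldn3 and -0.13 to 0.072 for Cldn8 in ZF against ZL. In treated against untreated ZF rats the ranges were -0.22 to 0.086 for Cldn3, -0.13 to 0.13 for Cldn4, -0.073 to 0.10 for Cldn7 and -0.026 to 0.089 for Cldn16. In treated against ZL rats they were -0.15 to 0.20 for Cldn3 and -0.12 to 0.064 for Cldn19. With the median of the markers in place of the mean, 8 of 36 relative differences changed sign. These were Cldn2 to the proximal tubule (-0.023 in ZF against ZL, -0.28 in treated against ZL), Cldn4 to principal cells (-0.069 in treated against ZL), Cldn7 to principal cells (-0.092 in ZF against ZL), Cldn8 to the distal and connecting tubule (0.052 in treated against untreated, 0.000438 in treated against ZL), Cldn16 to the thick limb (-0.029 in treated against untreated) and Cldn19 to the thick limb (-0.012 in treated against ZL). The causes were not tested. With 4 rats a group, the SE of a log2 difference of the 9 claudins was 0.10 to 0.23, which limits the size that could be detected.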
